A study of Mus musculus with 6 samples.

Results

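The Twist, Snail, Zeb and Prrx factors are 8 transcription factors, Twist1, Twist2, Snai1, Snai2, Zeb1, Zeb2, Prrx1 and Prrx2, that mark cells of the mesenchyme. They were chosen by name, 2 genes from each of 4 families, from a table of 55401 genes. The rule used no measured value, but earlier results of these data were known when the choice was made. RNA was sequenced from C3H10T1/2, a mouse embryonic mesenchymal cell line that can be led into bone, fat, cartilage or muscle in culture. 3 stable lines were made from it with retroviruses that carry short hairpin RNAs: shControl with a control hairpin (genotype WT in the labels), shNFIB with a hairpin against Nfib, a transcription factor of the nuclear factor I family, and shMLL1, in which the hairpin targets Kmt2a, which encodes the histone H3K4 methyltransferase MLL1. Untreated cells were taken at day 0, and cells kept in osteogenic medium were taken at day 7. All 3 lines received the same medium, with dexamethasone at 0.1 μM, ascorbic acid 2-phosphate at 100 μg/mL and β-glycerophosphate at 20 mM. Each of the 6 conditions was sequenced as 1 library, so that a difference between any pair of conditions has no replicate check.

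The Twist, Snail and Zeb factors are best known for the change of epithelial into mesenchymal cells, in which they repress the cell adhesion gene Cdh1. Twist proteins are basic helix-loop-helix factors that work as dimers with E proteins, and Id proteins block such dimers. Snail proteins and Zeb proteins are zinc finger repressors that bind E-box sequences and recruit corepressors such as CtBP, LSD1 and histone deacetylases, and Prrx proteins are paired-related homeodomain factors of limb and craniofacial mesenchyme. In the skeleton, Twist1 is known to hold back the osteoblast factor Runx2.

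The total count per library was between 21608680 in shMLL1 at day 7 and 34774066 in shNFIB at day 0. Levels are given as CPM, that is, the deposited counts as a share of the library total, per 1000000 counts, after scaling with edgeR's trimmed mean of M-values (TMM). The hairpin targets were lower in their own line: Nfib was at 116 CPM in shControl at day 0 and at 35.3 in shNFIB, and at 83.5 against 8.15 at day 7. Kmt2a was at 74.7 in shControl and 30.9 in shMLL1 at day 0, and at 66.3 and 34.8 at day 7. In shMLL1 the level of Nfib was 65.5 CPM at day 0 and 72.7 at day 7, under that of shControl on both days. Of 7 mesenchymal cell markers, 6 had more than 3 counts in every library and their summed level was between 1088 and 2353 CPM, whereas Nt5e had at most 6 counts. The osteoblast markers Ibsp, at 0 in all 6 libraries, and Sp7, with at most 7 counts, were near absent also at day 7. Of the other 4, Runx2 had 1047 counts at day 0 and 3561 at day 7 in shControl, 993 and 898 in shNFIB and 972 and 862 in shMLL1, and Alpl had 7 and 111, 8 and 215, and 0 and 2. Bglap and Dmp1 had at most 15 counts. Markers of other cells summed to between 2.79 and 25.5 CPM for the endothelium, 1.58 and 8.40 for blood cells, 0.0656 and 2.25 for skeletal muscle, and 81.5 and 411 for cartilage. The highest endothelial sum, in shNFIB at day 0, was mostly Tek (25.2 CPM). Cd68 (7.12 CPM) made up most of the highest blood cell sum, in shControl at day 7. The highest cartilage sum, in shControl at day 0, was mostly Col2a1 (223 CPM) and Sox9 (187 CPM). Acan was at 0 in all 6 libraries and Matn1 had at most 1 count. Comp had 30 counts in shControl, 6 in shNFIB and 17 in shMLL1 at day 0, and more at day 7, with 767, 150 and 321. In bulk RNA, fewer cells of a type and less RNA per cell cannot be told apart.

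Since one hairpin is directed against an NFI protein, the promoters were searched for the NFI half-site GCCAA, and also for CCAAT, for the E-box CACCTG that Snail and Zeb proteins bind, and for the homeodomain core TAATTA. Both strands were read in the 300 bases around each annotated start (250 before it and 50 after it), in RefSeq windows on GRCm38, and 6 of the 8 genes had a window. The lines below are shown because they hold the matches closest in kind to the factors of this study. Capitals mark the match, and the strand is that of the gene.
Twist2, chr1:91801388-91801411, plus strand, match beginning 64 bases before the start: gccacggtgGCCAAtcagcgcgcc
Twist1, chr12:33957572-33957595, plus strand, 90 bases before the start: ccacgtcagGCCAAtgacaccgct
Snai1, chr2:167538103-167538126, plus strand, 83 bases before the start, half-site read on the other strand: cgccagccaTTGGCtcagccttga
Snai1, chr2:167538060-167538083, plus strand, 126 bases before the start: gcccaggcgCACCTGctccggtct
Prrx1, chr1:163313809-163313832, minus strand, 173 bases before the start: agggaatgaTAATTAgacctttat

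GCCAA was present in windows of 5 of these 6 genes, Twist1, Twist2, Snai1, Zeb2 and Prrx1, and in 46.7% of all 32851 windows. A gene was counted when any of its windows matched, and Zeb2 had matches in several windows. The percentages here are per window, so they cannot be compared directly with the counts of genes. CCAAT, which shares letters with GCCAA in the Twist1, Twist2 and Snai1 lines above, was present for 4 of the 6 genes and in 37.4% of all windows. The E-box was found for Snai1 alone among the 6 genes (20.2% of all windows), and TAATTA for Prrx1 alone (5.29%). A match of letters is not a measured binding site.

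All 8 factors were detected in every library. Compared per length, as the mean CPM per kilobase of annotated exon over the 6 libraries, Prrx1 (82.1) and Prrx2 (61.9) were the most abundant, followed by Snai2 (45.3), Snai1 (29.8), Twist1 (16.2), Zeb1 (9.72), Zeb2 (4.24) and Twist2 (2.18). Among protein-coding genes with counts these levels stood between the percentiles 43.6 for Twist2 and 96.7 for Prrx1. The exon length joins all annotated transcripts of a gene, 1621 bases for Snai1 with 1 transcript and 19942 for Zeb2 with 29. The order of the genes and their percentiles may depend on this choice of length. The spread over libraries also differed between the genes: the highest library exceeded the lowest by 12.2 times for Twist2, 6.89 times for Prrx2, 4.65 times for Snai1, 3.07 times for Prrx1, 2.60 times for Snai2, 2.13 times for Zeb2, 1.72 times for Zeb1 and 1.41 times for Twist1.

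**Figure D1:**
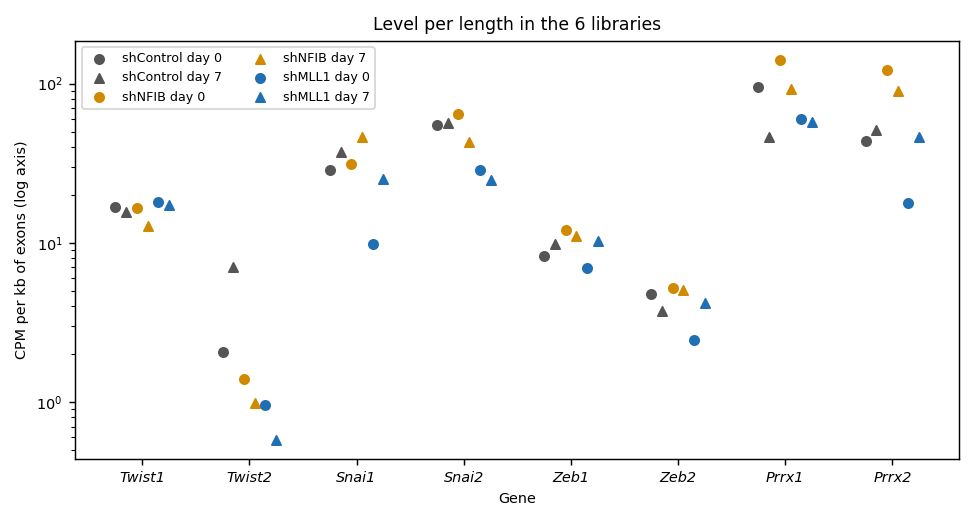
Level per length of each factor in the 6 libraries, as CPM per kilobase of exons on a log axis; circles are day 0, triangles are day 7, and colours are the lines. Prrx1 and Prrx2 stand highest with means of 82.1 and 61.9, and Twist2 stands lowest with its shControl day 7 library, at 7.07, apart from the other 5.

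Genes of one family could share reads, which would blur the pairs. Between annotated transcripts of Twist1 and Twist2 the longest identical run was 23 bases, as it was between Snai1 and Snai2, and it was 35 bases for Zeb1 and Zeb2 and 19 bases for Prrx1 and Prrx2. No run reached the read length of 100 bases. In the comparisons that follow, 2 libraries were set against each other as a log2 fold change with a 95% interval that covers counting error only, and a gene was taken as different when it was past 2-fold with at least 10 counts in the higher library. This is a rule of size and not a test.

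Twist2 (ENSMUSG00000007805, chr1:91801461-91848028), which is known from dermal and early skeletal mesenchyme, varied most. At day 0 it had 210 counts in shControl (6.57 CPM), 140 in shNFIB (4.43 CPM) and 92 in shMLL1 (3.05 CPM). At day 7 it had 684 counts in shControl (22.4 CPM), 92 in shNFIB (3.11 CPM) and 45 in shMLL1 (1.84 CPM). The shControl library of day 7 thus stood above the other 5, and the 2 shControl libraries stood above all 4 knockdown libraries, among which neighbours in order had overlapping counting intervals. Within shControl, Twist2 was 3.41-fold higher at day 7 (log2 fold change 1.77, interval 1.55 to 2.00). The same comparison gave -0.51 (-0.91 to -0.12) in shNFIB and -0.72 (-1.27 to -0.20) in shMLL1. Against shControl at day 7, Twist2 was 7.20-fold lower in shNFIB (-2.85, interval -3.18 to -2.53) and 12.1-fold lower in shMLL1 (-3.60, interval -4.07 to -3.17). At day 0 the differences were -0.57 (-0.89 to -0.25) in shNFIB and -1.11 (-1.48 to -0.75) in shMLL1.

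The reads of an overlapping gene and the markers of other cells were read beside it. The antisense gene Gm29100 shares 1477 exon bases with Twist2, and the strand setting of the counting is not given in the sources used here, so that their reads may be mixed. Gm29100 had 33 counts in shControl, 84 in shNFIB and 44 in shMLL1 at day 0, and 138, 153 and 156 at day 7. Gm29100 was thus higher at day 7 in all 3 lines, while Twist2 was higher in shControl only. At day 7 it had more counts than Twist2 in shNFIB (153 against 92) and in shMLL1 (156 against 45). Its effect on the Twist2 counts was not tested. The summed level of 6 adipocyte markers, like Twist2, was highest in shControl at day 7, at 113 CPM. It was 5.14 in shNFIB and 8.65 in shMLL1 at day 7, and between 3.61 and 4.66 at day 0. In shControl at day 7, 5 of the 6 markers were above 3 counts and Adipoq was at 0. Most of that sum was Cfd, at 69.8 CPM, whereas Fabp4 was at 4.6 CPM in shControl on both days. At day 7 Cidec had 681 counts in shControl, 5 in shNFIB and 17 in shMLL1, and Plin1 had 472, 9 and 28. Lep had 20, 0 and 3. For 6 osteoblast markers the sum was 122 CPM in shControl at day 7 and between 31.8 and 37.8 in the other 5 libraries, with 5 of 6 above 3 counts and Ibsp at 0; most of it was Runx2, at 117 CPM. Any part of cells with these markers in the Twist2 level was not tested.

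Twist1 (ENSMUSG00000035799, chr12:33957671-33959829) was the steadiest of the 8. It had 877, 851 and 884 counts at day 0 in shControl, shNFIB and shMLL1 (27.5, 27.0 and 29.3 CPM), and 773, 613 and 683 at day 7 (25.4, 20.7 and 28.0 CPM). Of the 5 neighbouring pairs in the order of its levels, 4 had overlapping intervals, the exception being the lowest library, shNFIB at day 7. No pair of libraries came near 2-fold, and the day 7 difference within a line was between -0.38 in shNFIB and -0.07 in shMLL1. The 2 Twist genes, alike in protein type, thus differed in profile in these libraries, with a root mean square distance of 1.16 log2 units between their centred levels. The median distance from Twist2 to all genes tested was 1.25, so Twist1 was no further from it than a typical gene.

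**Figure D2:**
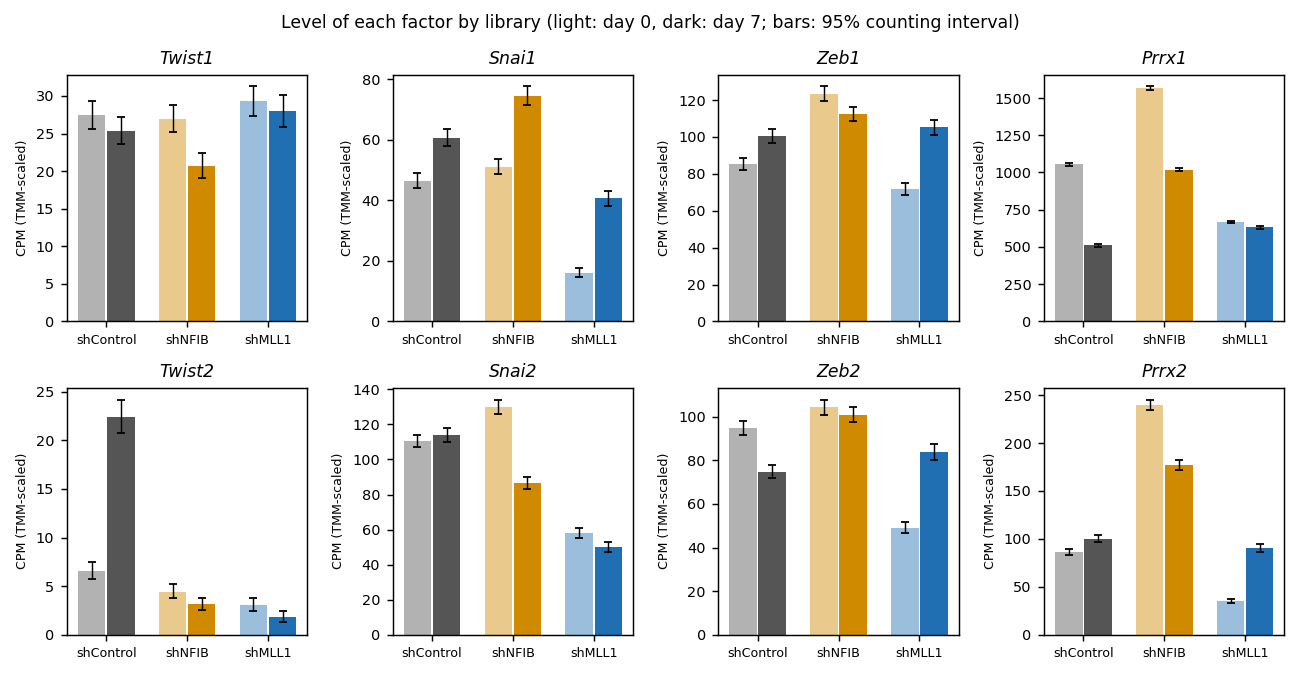
CPM of each factor in each of the 6 libraries, with 1 bar per library (light for day 0, dark for day 7) and bars of 95% counting intervals. Twist1 stays between 20.7 and 29.3 CPM, whereas Twist2 reaches 22.4 CPM in shControl at day 7 and lies between 1.84 and 6.57 CPM in the other 5 libraries.

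Snai1 (ENSMUSG00000042821, chr2:167538195-167542814), which encodes the repressor SNAIL, was lowest in shMLL1 on both days. At day 0 it had 1488 counts in shControl (46.6 CPM), 1613 in shNFIB (51.1 CPM) and 484 in shMLL1 (16.0 CPM). At day 7 it had 1850 counts in shControl (60.7 CPM), 2204 in shNFIB (74.6 CPM) and 992 in shMLL1 (40.7 CPM). The shNFIB libraries were the highest of each day, and the intervals of shControl and shNFIB at day 0 overlapped. Every line was higher at day 7, by 0.38 (0.28 to 0.48) in shControl, 0.55 (0.45 to 0.64) in shNFIB and 1.34 (1.18 to 1.50) in shMLL1 on the log2 scale. Against shControl, shMLL1 was 2.90-fold lower at day 0 (-1.54, interval -1.69 to -1.39) and lower by 1.49-fold at day 7 (-0.58, -0.69 to -0.47).

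Snai2 (ENSMUSG00000022676, chr16:14705852-14709385), the gene for SLUG, was also lowest in shMLL1. It had 3531, 4109 and 1750 counts at day 0 in shControl, shNFIB and shMLL1 (111, 130 and 58.0 CPM), and 3472, 2562 and 1222 at day 7 (114, 86.7 and 50.1 CPM). Unlike Snai1 it was not higher at day 7: the difference was 0.04 (-0.02 to 0.11) in shControl, -0.59 (-0.66 to -0.51) in shNFIB and -0.21 (-0.32 to -0.11) in shMLL1. Against shControl, shMLL1 was lower by 1.91-fold at day 0 (-0.93, interval -1.01 to -0.85) and 2.27-fold at day 7 (-1.19, interval -1.28 to -1.09).

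Zeb1 (ENSMUSG00000024238) and Zeb2 (ENSMUSG00000026872, chr2:44983632-45117395) were the closest pair of all 8 factors, with a distance of 0.222. The median distance to all genes tested was 0.561 from Zeb1 and 0.619 from Zeb2, and other genes were nearer to each. Zeb1 had 2726, 3901 and 2166 counts at day 0 in shControl, shNFIB and shMLL1 (85.3, 124 and 71.8 CPM), and 3063, 3328 and 2568 at day 7 (100.5, 113 and 105 CPM). Zeb2 had 3027, 3290 and 1480 counts at day 0 (94.8, 104 and 49.0 CPM) and 2281, 2983 and 2042 at day 7 (74.8, 100.9 and 83.7 CPM). For both genes shMLL1 at day 0 was the lowest library and shNFIB at day 0 the highest. Neither gene was past 2-fold in any of the 7 comparisons; the nearest were Zeb2 in shMLL1 against shControl at day 0 (-0.95, interval -1.04 to -0.86) and Zeb2 in shMLL1 at day 7 against day 0 (0.77, interval 0.67 to 0.87). The antisense gene Zeb2os shares 653 exon bases with Zeb2 and had between 89 and 207 counts, and Gm10125 shares 198 with Zeb1 and had between 33 and 89. Both were far below the gene they overlap.

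Prrx1 (ENSMUSG00000026586, chr1:163245119-163313710, minus strand), a regulator of limb bud mesenchyme, was the most abundant. At day 0 it had 33714 counts in shControl (1055 CPM), 49411 in shNFIB (1565 CPM) and 20158 in shMLL1 (668 CPM). At day 7 it had 15547 counts in shControl (510.0 CPM), 30104 in shNFIB (1018 CPM) and 15470 in shMLL1 (634 CPM). No neighbouring libraries in the order of its levels had overlapping counting intervals. It was lower at day 7 by 2.07-fold in shControl (-1.05, interval -1.08 to -1.02) and by 1.54-fold in shNFIB (-0.62, -0.64 to -0.60), and the difference in shMLL1 was -0.08 (-0.11 to -0.05). Against shControl, shNFIB was higher at day 0 (0.57, 0.55 to 0.59) and at day 7, where the log2 difference of 1.00 (0.97 to 1.03) lay just under the limit of 2-fold. In shMLL1 the difference was -0.66 (-0.69 to -0.63) at day 0 and 0.31 (0.28 to 0.35) at day 7.

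Prrx2 (ENSMUSG00000039476, chr2:30834972-30881251) was spread over a wider range. It had 2749 counts in shControl at day 0 (86.1 CPM), 7573 in shNFIB (239.8 CPM) and 1050 in shMLL1 (34.8 CPM). At day 7 it had 3058 counts in shControl (100.3 CPM), 5231 in shNFIB (177 CPM) and 2204 in shMLL1 (90.3 CPM). The 2 shNFIB libraries were thus the highest and shMLL1 at day 0 the lowest. At day 0 shNFIB was 2.79-fold higher than shControl (1.48, interval 1.42 to 1.54) and shMLL1 2.47-fold lower (-1.31, interval -1.41 to -1.20). At day 7 these differences were 0.82 (0.75 to 0.88) and -0.15 (-0.23 to -0.07). The day 7 difference within a line was 0.22 (0.15 to 0.30) in shControl, -0.44 (-0.49 to -0.39) in shNFIB and 1.38 (1.27 to 1.48) in shMLL1.

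**Figure D3:**
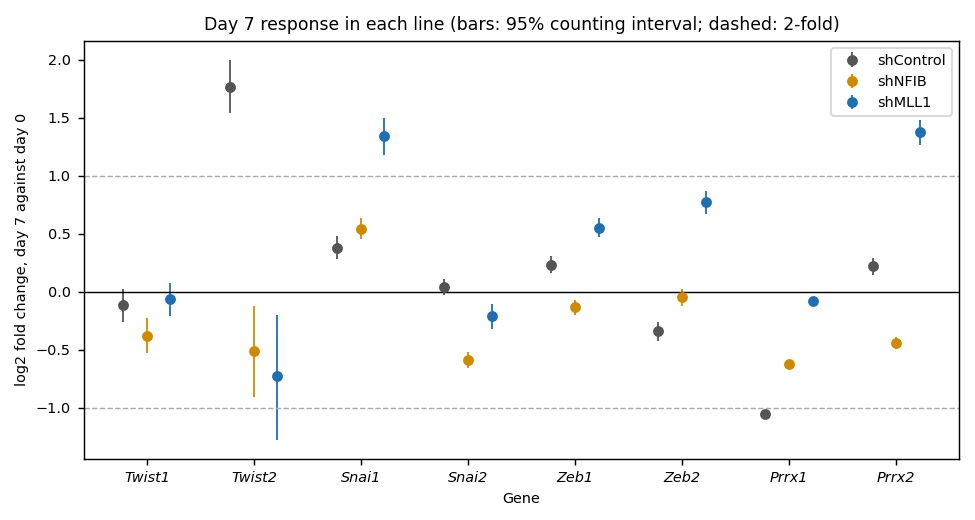
Log2 fold change of day 7 against day 0 within each line (1 library against 1) with 95% counting intervals; dashed lines mark 2-fold. Twist2 is above the dashed line in shControl (1.77) and below 0 in both knockdown lines, whereas Snai1 (1.34) and Prrx2 (1.38) are above it in shMLL1.

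Counted over the family, 2 of the 8 factors were past 2-fold between the days in shControl, Twist2 upwards and Prrx1 downwards, while 37.9% of all genes with enough counts were past 2-fold there. In shNFIB it was 0 of 8 against 30.5% of all genes, with the largest difference for Prrx1 at -0.62, and in shMLL1 it was 2 of 8, Snai1 and Prrx2, both upwards, against 45.6%. Scaled by library size alone, Prrx1 in shControl was no longer past 2-fold, which left 1 factor.

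Against shControl at day 0, 1 of 8 factors was past 2-fold in shNFIB, Prrx2 upwards, where 13.6% of all genes were, and 3 of 8 were in shMLL1, Twist2, Snai1 and Prrx2, all downwards, where 20.4% of all genes were. In shMLL1 at day 0, 7 of the 8 factors had a log2 difference below 0, as had 52.3% of all genes, the exception being Twist1 at 0.09 (-0.04 to 0.23), and at day 7 4 of 8 had one, as had 52.8% of all genes. At day 7 it was 1 of 8 in shNFIB, Twist2, against 21.3%, and 2 of 8 in shMLL1, Twist2 and Snai2, both downwards, against 15.5%. The comparisons of the same day share the shControl library, and its level enters both differences.

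**Figure D4:**
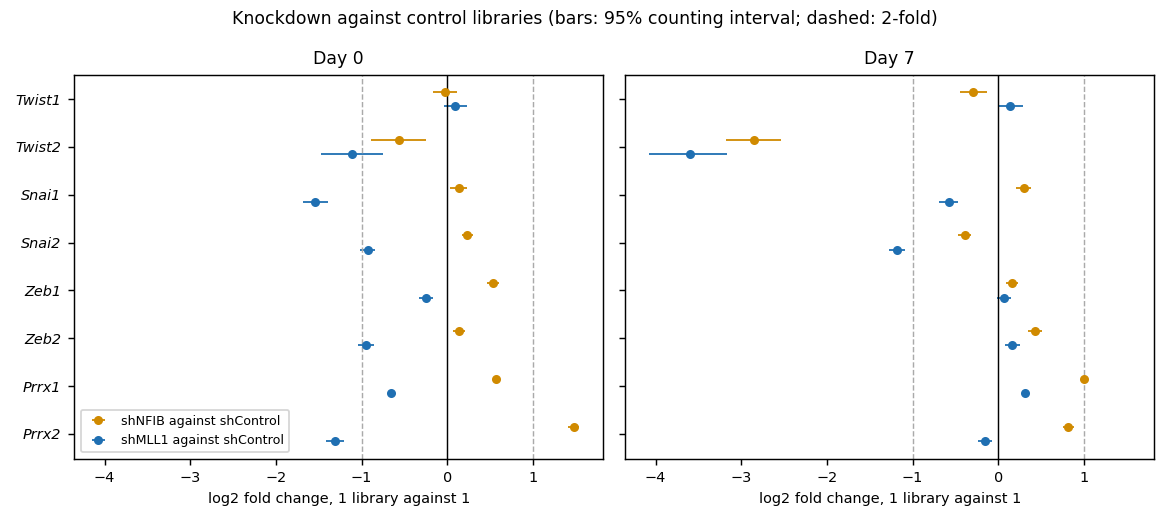
Log2 fold change of each knockdown line against shControl at day 0 (left) and day 7 (right), 1 library against 1, with 95% counting intervals and dashed lines at 2-fold. At day 7 Twist2 lies far to the left for both lines (-2.85 and -3.60), and at day 0 Prrx2 lies on opposite sides (1.48 and -1.31).

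The day 7 differences of the lines were also set against that of shControl. For Twist2 the difference in response was -2.28 log2 units in shNFIB (interval -2.72 to -1.84) and -2.49 in shMLL1 (-3.06 to -1.93), with a size above those of 92.5% and 91.3% of all genes. In shMLL1 the response exceeded that of shControl by 1.16 for Prrx2 (1.03 to 1.29), 1.11 for Zeb2 (0.99 to 1.24), 0.97 for Prrx1 (0.93 to 1.02) and 0.96 for Snai1 (0.78 to 1.15), sizes above those of 69.9% to 75.6% of all genes. In shNFIB the difference from the response of shControl was -0.66 for Prrx2 (-0.75 to -0.57), -0.63 for Snai2 (-0.73 to -0.53) and 0.43 for Prrx1 (0.40 to 0.46), sizes above those of 64.7%, 63.0% and 49.8% of all genes. With 1 library per line and day, a difference between responses cannot be tested.

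A quasi-likelihood fit in edgeR over all 6 libraries, with line and day as terms, gave the comparisons that have replication. It tested 15708 genes, all 8 factors among them, with 2 residual degrees of freedom. The lines stand in for replicates of a day and the days for replicates of a line, so that p-values measure only the spread between these libraries, which holds any true difference between responses. For day 7 against day 0, 1 of 8 factors passed an adjusted p of 0.05 (Benjamini-Hochberg over all genes tested), while 34.4% of all genes did. It was Snai1, which rose by 0.75 ± 0.24 on the log2 scale (SE, 3 libraries per day, adjusted p = 0.0475 in edgeR) and was higher at day 7 in 3 of 3 lines. This call did not hold when any of the lines was left out: the log2 fold change was 0.90 without shControl (adjusted p = 0.111 in edgeR), 0.86 without shNFIB (adjusted p = 0.0649) and 0.43 without shMLL1 (adjusted p = 0.152).

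The other 7 did not pass. Prrx1 was next, at -0.58 ± 0.28 (adjusted p = 0.144 in edgeR), with a lower level at day 7 in 3 of 3 lines. Twist2, whose lines went in opposite directions, had a fitted day effect of 0.19 ± 0.53 (adjusted p = 0.800 in edgeR). Without shControl it was -0.66. The remaining 5 lay between -0.25 for Snai2 and 0.38 for Prrx2, around a median of -0.02 over all genes tested.

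For shNFIB against shControl over both days, 0 of 8 factors passed in edgeR, while 0.255% of all genes did, and 2 of 8 had an unadjusted p under 0.05, as had 12.4% of all genes. These were Twist2, at -1.87 ± 0.64 (adjusted p = 0.324 in edgeR), and Prrx2, at 1.20 ± 0.42 (adjusted p = 0.325 in edgeR), each with the same direction on both days. With 1 library left out, Twist2 lay between -2.92 (without shControl at day 0) and -0.57 (without shControl at day 7), and Prrx2 between 0.50 (without shNFIB at day 0) and 1.74 (without shNFIB at day 7). DESeq2 also called 0 of 8, and 576 genes in all. For shMLL1 against shControl, 0 of 8 passed in edgeR, while 0.0318% of all genes did, and 3 of 8 had an unadjusted p under 0.05, as had 9.17% of all genes. Twist2 was at -2.49 ± 0.66 (adjusted p = 0.289 in edgeR), Snai2 at -1.07 ± 0.24 (adjusted p = 0.222 in edgeR) and Snai1 at -1.04 ± 0.29 (adjusted p = 0.313 in edgeR), each lower than shControl on both days. DESeq2 called 2 of 8 there, Twist2 (adjusted p = 0.00642) and Snai2 (adjusted p = 0.0310), and 392 genes in all. Both factors also passed in edgeR when every gene with at least 1 count was kept (adjusted p = 0.00218 and 0.0381 in edgeR). That setting called 526 genes in all. The call of Twist2 and Snai2 in shMLL1 thus depended on the filter and on the tool. With 1 library left out, Twist2 lay between -3.52 and -1.18, the latter without shControl at day 7, Snai1 between -1.46 (without shMLL1 at day 7) and -0.62 (without shMLL1 at day 0), and Snai2 between -1.26 and -0.86. Twist1 (0.12), Zeb1 (-0.08) and Prrx1 (-0.17) were nearest to 0 in shMLL1.

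**Figure D5:**
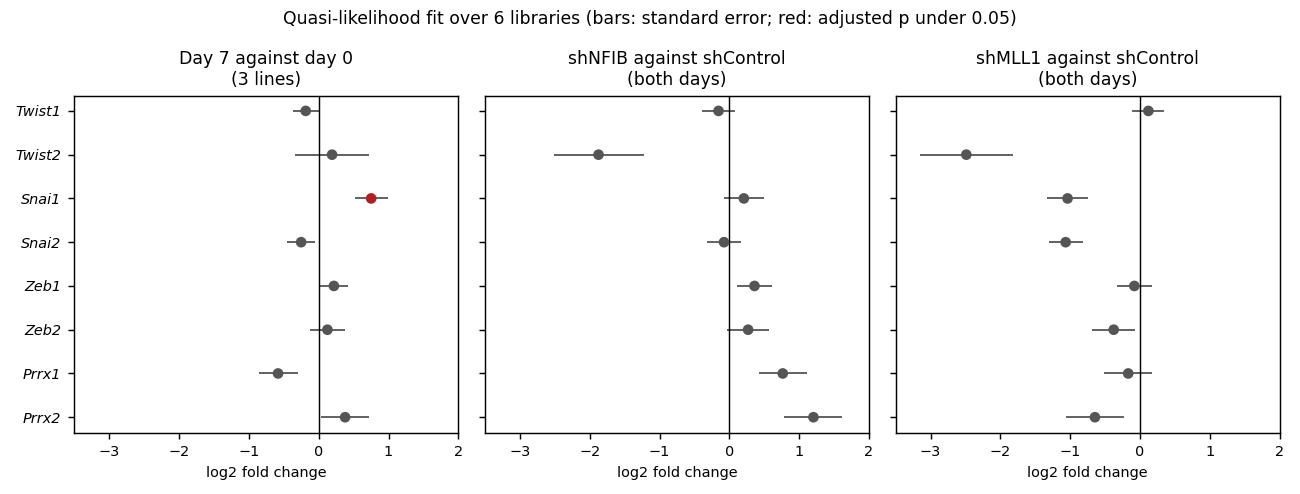
Log2 fold change with its standard error for each factor in the quasi-likelihood fit over 6 libraries, for day 7 against day 0 (left), shNFIB (middle) and shMLL1 (right) against shControl; red marks an adjusted p under 0.05. Snai1 in the day panel, at 0.75, is the only red point, and Twist2 has the widest standard errors, from 0.53 to 0.66.

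Genes that work with these factors were taken as lists written from general knowledge. Of 7 E proteins and Id proteins, 6 were tested and 0 passed for day 7 in edgeR, while 34.4% of all genes did. Of the 6, 2 had an unadjusted p under 0.05, as had 47.4% of all genes. DESeq2 called 1 of them and 6341 genes in all. The median log2 fold change of the 6 was -0.25. For shMLL1 against shControl, 0 of these 6 passed in edgeR, while 0.0318% of all genes did. There 2 had an unadjusted p under 0.05, as had 9.17% of all genes. DESeq2 called the same 2 and 392 genes in all. These 2 were Id2 and Id3, chosen here after their values were seen. Id2, an inhibitor of helix-loop-helix dimers, had 2886, 4058 and 356 counts at day 0 in shControl, shNFIB and shMLL1, and 1027, 1398 and 477 at day 7, so that it was lowest in shMLL1 on both days (log2 fold change -1.73 ± 0.55, adjusted p = 0.392 in edgeR). Id3 was at -1.44 ± 0.35 (adjusted p = 0.252 in edgeR).

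Of 8 corepressors that Snail and Zeb proteins recruit, all tested, 4 fell at day 7 and 0 rose, with a median of -0.50, while 17.3% of all genes tested fell and 17.1% rose. Those that fell were Ajuba (-1.08 ± 0.19, adjusted p = 0.00764 in edgeR), a LIM protein that binds SNAIL, the deacetylases Hdac2 (-0.76) and Hdac1 (-0.61), and Ctbp1 (-0.65). In the line effects 0 of the 8 passed in edgeR, 0 had an unadjusted p under 0.05 and 0 were called by DESeq2. Over all genes tested, an unadjusted p under 0.05 was found for 12.4% in shNFIB and 9.17% in shMLL1. Of 14 other members of the same families, 12 had at most 3 counts in every library. Scx, a tendon factor related to Twist, was one of the 2 that were tested, and it fell at day 7 (-2.69 ± 0.43, adjusted p = 0.00582 in edgeR), from 286, 446 and 504 counts to 89, 34 and 55.

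Genes that some of these factors are known to repress or accompany were read in the same way. Of 20 epithelial genes, 11 had at most 3 counts in every library, Epcam was at 0 in all 6, and 2 were tested. Cdh1, the gene for E-cadherin, had 286, 183 and 237 counts at day 0 in shControl, shNFIB and shMLL1, and 34, 6 and 14 at day 7. It fell in 3 of 3 lines with no overlap between the days (-3.76 ± 0.45, adjusted p = 0.00216 in edgeR). The other, the tight junction gene Cldn1, had 39, 131 and 38 counts at day 0 and 6, 89 and 134 at day 7, and did not pass (-0.15 ± 0.83, adjusted p = 0.904 in edgeR). Against shControl it was at 2.35 ± 0.97 in shNFIB (adjusted p = 0.396 in edgeR) and 2.31 ± 1.06 in shMLL1 (adjusted p = 0.578 in edgeR). Of 16 mesenchymal genes, all tested, 3 rose and 6 fell at day 7, with a median of -0.74, beside the same shares of all genes, 17.1% and 17.3%. The 4 largest changes were in the matrix protein gene Tnc (-3.18), the smooth muscle actin gene Acta2 (-3.02), the matrix protease gene Mmp2 (2.00) and the growth factor receptor gene Pdgfra (1.81). In shNFIB 1 of the 16 passed, while 0.255% of all genes did. It was Thy1, a surface protein gene named here after its value was seen, which was higher (2.36, adjusted p = 0.0351 in edgeR). In shMLL1 0 of 16 passed in edgeR, while 0.0318% of all genes did. There 2 had an unadjusted p under 0.05, as had 9.17% of all genes, and DESeq2 called 1 of the 16 and 392 genes in all. Pdgfra and Thy1 also stand in the list of mesenchymal cell markers.

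The genes nearest in profile to 6 of the factors were found by the root mean square distance between log2 CPM centred over the 6 libraries, among all genes tested. For Twist2 they were Srgn (0.388), Scml4 (0.415) and 9630013D21Rik (0.433), against a median of 1.25 over all genes. For Prrx2 they were Radil (0.0911), Tril and Naip6. Hlx (0.155), Tcf7l1 and Tmem8 were nearest to Snai1, and AC126937.2 (0.106), Eya4 and Gm48342 to Snai2. The Zeb genes had other neighbours than each other, Kansl3 (0.0662), Vsig10 and Inpp5f for Zeb1 and Foxj2 (0.0769), Ticam1 and Tlcd2 for Zeb2. Over 6 libraries such neighbours are a description of these samples.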

How the data were processed

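For the paired reads the authors used Trimmomatic 0.39 to trim, HISAT2 2.2.1 to align (genome build mm10, that is GRCm38), SAMtools 1.12 to filter and HTSeq 0.11.1 to count. The deposited values are raw counts per Ensembl gene. The annotation release and strand setting of the counting are not given in the sources used here. Symbols, positions and exon lengths came from GENCODE M21 on GRCm38, and 260 of the 55401 genes had no entry.

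Models were fitted in edgeR 4.0.16 (R 4.3.3) with TMM factors, filterByExpr on day and the terms line and day. Both days of a line are cells of the same hairpin, so that the line pairs them. Deviations of the same line at both days correlated at 0.434 in shControl, 0.429 in shNFIB and 0.272 in shMLL1. Pairs of libraries were compared with a prior count of 0.125, and their intervals and CPM intervals rest on counts alone. DESeq2 1.42.0 and other scalings, filters and subsets were alternatives. The steps were tested on simulated counts. Standard errors are the log2 fold change over the square root of the F statistic. Distances between profiles used a prior count of 2.

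The factors, lists and tests were chosen with earlier results of these data known. Genes named by rule are the 8 factors, the hairpin targets, at most 4 genes per list with the largest day effect past the adjusted p of 0.05, and the 3 nearest profiles of each factor. Some genes that meet this rule are not reported here. Markers, overlapping genes and list genes named beyond the rule were picked after their values were seen. Promoter windows are RefSeq sequences. ChIP-seq and adipogenic samples were not used here.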

Additional observations from a re-analysis of the deposited data

Results flagged for a closer look

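The day 7 response of Twist2 had opposite directions in the lines: the log2 fold change was 1.77 in shControl, -0.51 in shNFIB and -0.72 in shMLL1. Prrx2 was higher at day 7 in shMLL1, at 1.38, and lower in shNFIB, at -0.44. Each value sets 1 library against 1, and the difference between the lines was not tested.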

How the results depend on the processing

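For day 7 against day 0 the edgeR fit called 5398 genes, between 2043 and 4813 with 1 line left out, and the 1 factor called, Snai1, was lost in all of these (0 to 0). Without the pairing by line, that is, with no replicate block, 0 factors were called, and Snai1 was at 0.63 (adjusted p = 0.306 in edgeR); over all alternatives its adjusted p was between 0.0173 and 0.306. With 1 line left out, the day effect lay between -0.66 and 0.64 for Twist2, -0.23 and 0.32 for Zeb2, and -0.15 and 0.80 for Prrx2.
For shNFIB, 40 genes were called, against 688 with every gene that had at least 1 count, 576 with DESeq2, 533 with only the 4 libraries of the 2 lines and 16 to 180 with 1 library left out. Factors called were 0, against 2 with every gene (Twist2 and Prrx2) and 1 with the 4 libraries (Prrx2). With 1 library left out, Snai1 lay between -0.11 and 0.49, Snai2 between -0.33 and 0.17 and Zeb2 between -0.12 and 0.63.
For shMLL1, 5 genes were called, against 526 with every gene, 392 with DESeq2, 183 with the 4 libraries and 1 to 361 with 1 library left out. Factors called were 0, against 2 with every gene and 2 with DESeq2 (Twist2 and Snai2 in both) and 0 to 1 with 1 library left out, where Snai1 passed without shMLL1 at day 7 (adjusted p = 0.0456 in edgeR). With 1 library left out, Zeb1 lay between -0.31 and 0.16, Zeb2 between -0.85 and 0.086, Prrx1 between -0.54 and 0.20 and Prrx2 between -1.44 and 0.0047. The cause of these shifts was not tested.
Between pairs of libraries, counting every gene with at least 1 count in either raised the genes past 2-fold to 12666 in shControl, 11066 in shNFIB and 14789 in shMLL1 between the days, to 7831 in shNFIB and 9651 in shMLL1 against shControl at day 0, and to 9364 and 9062 at day 7. edgeR's exact test at an assumed coefficient of variation of 0.2 left 3015 in shNFIB between the days, 701 and 1345 at day 0, and 1343 and 818 at day 7. It left 1 factor between the days in shControl, without Prrx1, 2 in shMLL1 against shControl at day 0, without Twist2, and 1 at day 7, without Snai2. Library size alone also left 1 in shControl. Since each condition is 1 library, how much separate cultures would differ is unknown.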
